A study of Mus musculus with 2 samples.

Results

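Stathmins and growth cone phosphoproteins are a small set of abundant proteins that act on the cytoskeleton. The set is encoded by the 4 stathmin genes Stmn1, Stmn2, Stmn3 and Stmn4, and the genes Gap43, Basp1, Marcks and Marcksl1. They were picked by gene symbol, by a rule that uses no measured value, though with earlier results of these data known, and each symbol matched 1 of the 55536 named genes of GENCODE release M21, so that 8 of 8 were measured. The study sequenced polyadenylated RNA from the neural tube of mouse embryos at day 12.5, in 2 libraries that form its 1 group and carry no treatment or mutation. Both libraries came from healthy embryos of strain B6NCrl with the sexes pooled; replicate 1 was a pool of 120 embryos and replicate 2 a pool of 88. With 1 group there was no comparison of conditions, so each gene is described by its level, by how the genes compare with each other, by the transcripts that carry it, and by how far the 2 pools differed.

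Stathmins bind tubulin dimers and favour microtubule disassembly, and they lose this activity when kinases phosphorylate them. Stmn1 is a soluble protein made by progenitors and young neurons, whereas Stmn2, Stmn3 and Stmn4 are largely neuronal and carry an extra stretch at the start of the protein that is palmitoylated and holds them on Golgi and vesicle membranes. Gap43, Basp1, Marcks and Marcksl1 sit on the inner face of the plasma membrane, bind calmodulin or acidic lipids, are substrates of protein kinase C, and link signals to the actin under the membrane of growth cones.

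The coding sequences of the leading transcripts show these 2 designs. The first 90 coding bases of the stathmins are printed, as they hold the stretch that differs between Stmn1 and the other stathmins, with each cysteine codon in capitals. They were read from the GENCODE M21 transcripts on mm10, 5′ to 3′ on the strand of the gene. Intron bases within each span were left out of them. They lie at chr4:134470163-134470743 (plus strand) for Stmn1, chr3:8509612-8541911 (plus) for Stmn2, chr2:181309172-181314212 (minus) for Stmn3 and chr14:66354433-66355662 (plus) for Stmn4.
Stmn1: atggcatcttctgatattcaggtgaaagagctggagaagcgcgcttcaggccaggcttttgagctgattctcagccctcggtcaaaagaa
Stmn2: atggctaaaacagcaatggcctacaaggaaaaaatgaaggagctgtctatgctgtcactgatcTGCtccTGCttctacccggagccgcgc
Stmn3: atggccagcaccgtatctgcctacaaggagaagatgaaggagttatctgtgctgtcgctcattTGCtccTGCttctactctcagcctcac
Stmn4: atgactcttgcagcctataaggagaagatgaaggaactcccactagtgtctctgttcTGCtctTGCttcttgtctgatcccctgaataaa
Stmn2 and Stmn3 have cysteine codons at codons 22 and 24 and Stmn4 at codons 20 and 22, counted from the start codon as 1. Stmn1 has 0 cysteine codons in its 149 codons. Whole coding sequences were aligned, and identity was taken over aligned bases only, with gaps left out. It was 73.6% between Stmn1 and Stmn2 (428 aligned bases) and 74.3% between Stmn2 and Stmn3 (536). Stmn1 and Stmn3 were the least similar of the 6 pairs, at 69.5% (426). The coding sequences have 447 bases in Stmn1, 537 in Stmn2 and 540 in Stmn3, so bases of Stmn2 and Stmn3 without a partner in Stmn1 are not counted.

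The growth cone phosphoproteins are anchored in other ways, and their first 36 coding bases are printed with the codons of the lipid anchor in capitals: the 2 cysteine codons that are palmitoylated in Gap43, and in the others the glycine codon that follows the start codon and is myristoylated. They lie at chr16:42292361-42340502 (minus strand, with intron bases left out) for Gap43, chr15:25364874-25364909 (minus) for Basp1, chr10:37138500-37138535 (minus) for Marcks and chr4:129513830-129513865 (plus) for Marcksl1, on mm10.
Gap43: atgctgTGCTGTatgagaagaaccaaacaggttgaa
Basp1: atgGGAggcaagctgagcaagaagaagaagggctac
Marcks: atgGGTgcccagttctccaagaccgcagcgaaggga
Marcksl1: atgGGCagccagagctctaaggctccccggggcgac
Marcks and Marcksl1 also share the basic effector stretch that binds calmodulin and acidic lipids and takes the protein kinase C phosphates. It is shown as the 25-codon window of the pair with the most identical bases, 55 of 75 (73.3%), with lysine codons in capitals. A pair of windows at least 75 bases away in either gene reached 52, so base identity alone hardly singles it out. The window lies at chr10:37136528-37136602 (minus strand, codons 146 to 170) for Marcks and chr4:129514888-129514962 (plus strand, codons 87 to 111) for Marcksl1.
Marcks: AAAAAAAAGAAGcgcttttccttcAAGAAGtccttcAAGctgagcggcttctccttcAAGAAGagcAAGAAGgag
Marcksl1: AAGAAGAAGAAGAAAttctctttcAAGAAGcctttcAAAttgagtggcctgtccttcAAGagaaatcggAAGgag
The Marcks window holds 11 lysine, 5 serine and 5 phenylalanine codons, and the Marcksl1 window 10, 3 and 4. Over the 595 aligned bases of their coding sequences, gaps left out, the pair was 68.2% identical. Alanine was 29.2% of the codons of Basp1, 28.8% of those of Marcks, 20.3% of those of Gap43 and 15.5% of those of Marcksl1, against 8.33% to 10.1% in the 4 stathmins. Glutamate codons were frequent in all 8, from 15.0% to 19.5%.

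Each library held 33529531 (replicate 1) and 35461403 (replicate 2) estimated counts, of which 97.0% and 97.1% were assigned to genes and 2.99% and 2.89% to the ERCC spike-ins, synthetic RNAs added to the samples. The tissue label was checked against marker genes. Each of the 8 spinal Hox genes reached 10 TPM in both libraries (TPM is a level per unit of transcript length, scaled to a fixed sum per library), and Hoxb6 was the highest (116.3 ± 3.61 TPM, SD, n = 2). Of 6 forebrain genes 0 reached 1 TPM in both, Six6 and Nkx2-1 were listed at 0, and Emx2 had the highest values (0.42 and 1.69). All 16 pan-neuronal markers and 10 of 12 progenitor markers reached 10 TPM in both, and so did markers of tissues outside the neural tube: 8 of 8 for mesenchyme, 7 of 8 for erythroid cells, and 5 of 9 for sensory ganglia. These are bulk samples, in which fewer cells of a type and less RNA per cell cannot be told apart.

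All 8 mRNAs were abundant, with Stmn1 and Marcksl1 far above the rest. TPM summed over the 8 genes was 7641 in replicate 1 and 7863 in replicate 2, with a mean of 7752 ± 156 (SD, n = 2) or 0.833% ± 0.0162 of all gene TPM. Stmn1 and Marcksl1 together made up 72.4% ± 1.47 of that sum. The lowest member, Stmn4, still ranked 1018th in replicate 1 and 948th in replicate 2 among 22015 nuclear protein-coding genes.

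**Figure D1:**
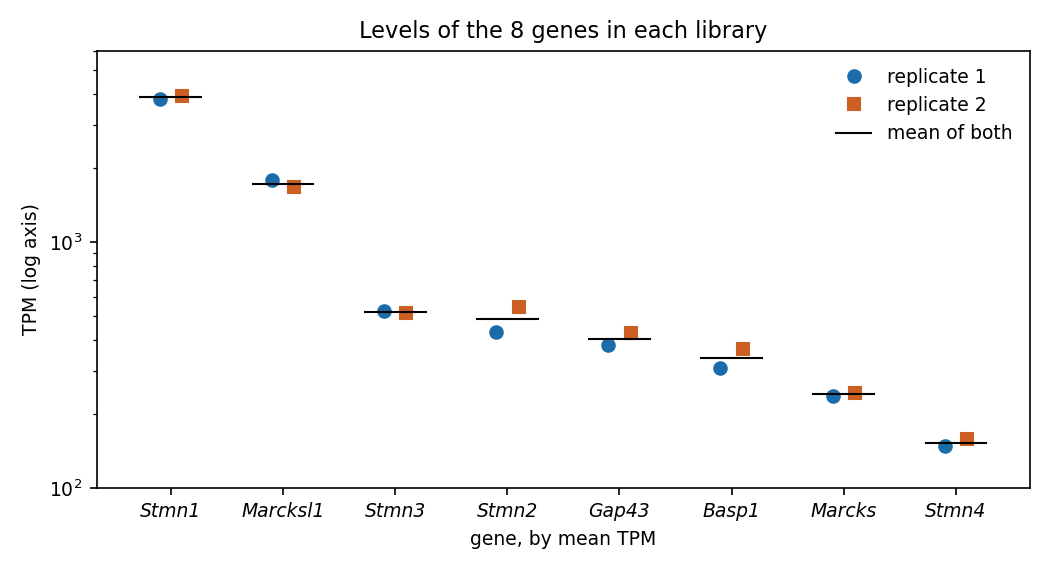
TPM of each of the 8 genes on a log axis in replicate 1 (circles) and replicate 2 (squares), with the mean of both libraries as a bar; genes are in the order of their mean. Stmn1 (3885 TPM) and Marcksl1 (1728 TPM) stand above the other genes (153 to 519 TPM), and only Stmn3 and Stmn2 change places between the libraries.

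Stmn1, the soluble stathmin, lies at chr4:134468320-134473843 on the plus strand of mm10 (ENSMUSG00000028832.11). Its level was 3831 TPM in replicate 1 and 3939 in replicate 2, with a mean of 3885 ± 76.7 (SD, n = 2), from 76690 and 81609 estimated counts. It was the 8th most abundant nuclear protein-coding mRNA in both libraries, between the globin gene Hba-a2 (4226 ± 216 TPM) and Ppia, a peptidyl-prolyl isomerase (3473 ± 105 TPM). It was present at a log2 ratio of 2.01 to Tubb3, the neuronal beta-tubulin, in replicate 1 and 2.00 in replicate 2, and at −1.14 and −1.10 to Tuba1a, the main alpha-tubulin here.

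The 3 membrane-bound stathmins were lower by several fold and differed among themselves. Stmn3 (ENSMUSG00000027581.12, chr2:181306459-181314500, minus strand) was at 525 TPM in replicate 1 and at 512 in replicate 2, a mean of 519 ± 9.04 (SD, n = 2), and ranked 176th and 182nd. Stmn2, which is needed for axon maintenance and regrowth in motor neurons (ENSMUSG00000027500.10, chr3:8509360-8561606, plus strand), was at 432 and 543 TPM, a mean of 487 ± 78.1, and ranked 253rd and 161st. Stmn4 (ENSMUSG00000022044.14, chr14:66344296-66361680, plus strand) was at 147 and 158 TPM, a mean of 153 ± 7.42. Stmn2 was the most variable of the 8 between the pools, so that Stmn3 exceeded it by 92.8 TPM in replicate 1 and Stmn2 was ahead by 30.4 TPM in replicate 2; the order of these neighbours was not resolved. Stmn4 was below both in each library.

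Within the family, the soluble form outweighed the membrane-bound forms together. Stmn1 supplied 77.0% ± 0.819 of the summed stathmin TPM, Stmn3 10.3% ± 0.492, Stmn2 9.65% ± 1.26 and Stmn4 3.03% ± 0.0552 (SD, n = 2). The log2 ratio of Stmn1 to the sum of Stmn2, Stmn3 and Stmn4 was 1.79 in replicate 1 and 1.70 in replicate 2, a mean of 1.75 ± 0.07 and a fold of 3.36 ± 0.155. Against Tubb3, the log2 ratio of Stmn2 was −1.14 and −0.86, that of Stmn3 −0.86 and −0.94, and that of Stmn4 −2.69 and −2.64.

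Gap43 and Basp1, palmitoylated and myristoylated respectively, lay between Stmn2 and Marcks in level. Gap43, a protein of axonal growth cones that marks outgrowing axons (ENSMUSG00000047261.9, chr16:42248442-42340651, minus strand), was at 379.9 TPM in replicate 1 and at 426 in replicate 2, a mean of 403 ± 32.6 (SD, n = 2). Basp1, a related membrane-bound protein of axon endings (ENSMUSG00000045763.8, chr15:25363277-25413764, minus strand), was at 307 and 367 TPM, a mean of 337 ± 42.9. Gap43 was above Basp1 in both libraries, with a log2 ratio of 0.31 and 0.21 (mean 0.26 ± 0.07), but replicate 2 of Basp1 came close to replicate 1 of Gap43.

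Marcks and Marcksl1, which share the effector stretch printed above, were far apart in level. Marcksl1 (ENSMUSG00000047945.6, chr4:129513581-129515985, plus strand) was at 1783 TPM in replicate 1 and at 1674 in replicate 2, a mean of 1728 ± 77.5 (SD, n = 2), and ranked 24th and 26th, between the nucleosome-binding gene Hmgn2 (1829 ± 5.76 TPM) and the RNA-binding gene Hnrnpa2b1 (1682 ± 61.6 TPM). Marcks (ENSMUSG00000069662.5, chr10:37133375-37138920, minus strand) was at 236 and 244 TPM, a mean of 240.03 ± 5.30. The log2 ratio of Marcks to Marcksl1 was −2.92 and −2.78, a mean of −2.85 ± 0.10. Length matters for this pair: the Marcks transcript has 4048 bases, of which 67.5% are 3′ untranslated, and the Marcksl1 transcript 1605 bases. Marcks had 0.347 and 0.382 counts per count of Marcksl1 but only 0.133 and 0.146 TPM per TPM, and it ranked 3rd of the 8 genes by counts (mean 20201) and 7th by TPM.

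**Figure D2:**
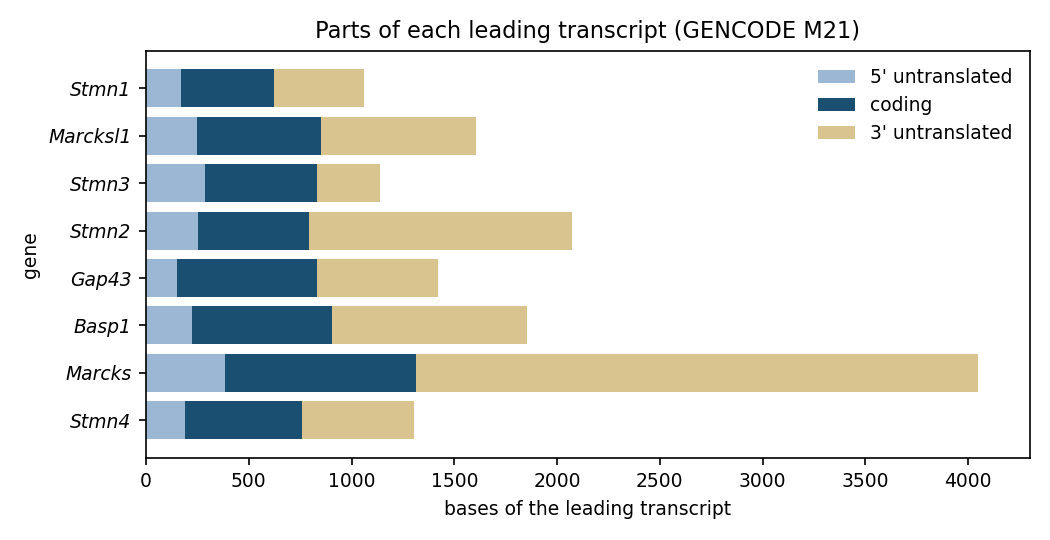
Length in bases of the leading GENCODE M21 transcript of each gene, split into the 5′ untranslated part, the coding part and the 3′ untranslated part; genes are in the order of their mean TPM. The coding parts run from 447 bases in Stmn1 to 927 bases in Marcks, and the 3′ untranslated parts from 305 bases in Stmn3 to 2733 bases in Marcks.

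Set in order of mean TPM, the genes ran Stmn1, Marcksl1, Stmn3, Stmn2, Gap43, Basp1, Marcks and Stmn4. Each was above the next in both libraries, with no overlap of their values, except Stmn3 and Stmn2. The fold between neighbours was 2.25 from Stmn1 to Marcksl1 and 3.33 from Marcksl1 to Stmn3, and between 1.06 and 1.57 below that. The middle of this order is crowded: the nearest protein-coding genes above and below each of the other 6 members, by mean TPM over these 2 libraries, were all within 2.95 TPM. They were Srsf3 and Gpx1 for Stmn3, Nedd4 and Prmt1 for Stmn2, Tspan3 and Anapc5 for Gap43, Serbp1 and Bnip3l for Basp1, Csnk1e and Psmd13 for Marcks, and Mien1 and Dtx3 for Stmn4. They are alike in level only.

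For all members but Stmn4, 1 annotated transcript carried nearly all of the TPM of the gene. Stmn3, Marcks and Marcksl1 have 1 transcript each in the annotation. The leading transcript held 98.3% ± 0.113 of Stmn1 (SD, n = 2), 99.9% of Gap43 and of Basp1, and 95.3% ± 0.318 of Stmn2. The rest of Stmn2 went to transcripts annotated as non-coding, with 3.33% and 3.94% in a processed transcript at the 3′ end of the gene and 1.17% and 0.98% in one with a retained intron. The processed transcript has only 308 bases, and its share rests on 63.0 and 96.9 counts. The one with a retained intron has 3413 bases and had more counts, 352 and 382.

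Stmn4 differed, with 3 coding transcripts above 5% in both libraries. Stmn4-201, of 189 codons, held 56.2% of the gene's TPM in replicate 1 and 51.3% in replicate 2 (53.7% ± 3.49, SD, n = 2). Stmn4-203, of 216 codons, held 31.3% and 33.4% (32.3% ± 1.47), and Stmn4-202, of 176 codons, held 8.67% and 10.2% (9.45% ± 1.10). The order of these transcripts was the same in both libraries. Their estimated counts were 2089 and 2112 for Stmn4-201, 1143 and 1350 for Stmn4-203, and 316.5 and 414 for Stmn4-202. The posterior SD of these counts was between 58.3 and 89.9 counts. The other 3 coding transcripts were below 0.3%. For 1 of them, estimated at 0 counts in both libraries, the posterior SD was 51.5 and 32.2 counts, so its share is uncertain. A transcript with a retained intron held 3.02% and 4.41%.

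The 3 forms share their first coding exons and differ by the stretches printed here, which are the coding bases that set them apart on the plus strand of mm10. The first, with 81 bases at chr14:66356269-66356349, is in Stmn4-203 alone among the 3 and, as a multiple of 3 bases, keeps the frame. The second, with 57 bases at chr14:66361075-66361131, ends the coding sequence of Stmn4-201 and Stmn4-203. The third, with 18 bases at chr14:66358679-66358696, ends it in Stmn4-202.
Stmn4-203 exon: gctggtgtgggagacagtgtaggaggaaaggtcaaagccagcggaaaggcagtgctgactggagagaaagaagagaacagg
Stmn4-201 and Stmn4-203 end: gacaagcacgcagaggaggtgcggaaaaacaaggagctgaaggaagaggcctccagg
Stmn4-202 end: gagccgcctgctgcgcgg
By transcript share, the 57 bases were the coding end on 87.5% of Stmn4 TPM in replicate 1 and 84.6% in replicate 2. The 18 bases were the coding end on 8.67% and 10.2%. Stmn4-202 runs on to chr14:66361674, so it may also hold the 57 bases, as untranslated sequence.

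**Figure D3:**
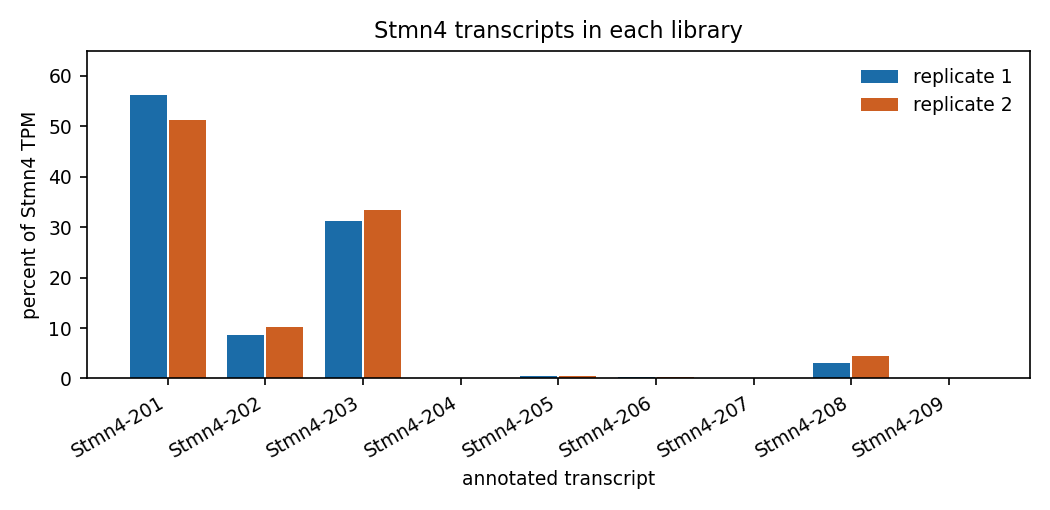
Percent of Stmn4 TPM assigned to each of its 9 annotated transcripts in replicate 1 and replicate 2, 1 bar per library. Stmn4-201 (56.2% and 51.3%), Stmn4-203 (31.3% and 33.4%) and Stmn4-202 (8.67% and 10.2%) hold most of the total in both libraries.

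Confusion of reads with other genes was looked for by sequence. A search of the leading transcripts against all GENCODE M21 transcripts, at 95% identity or more over at least 100 bases, matched another gene only for Stmn1. It was Gm11223, a processed pseudogene with 99.8% identity over 450 bases, found by this search after the values were seen. The leading Stmn1 transcript has 1060 bases, so reads from a large part of it can fit both genes. Gm11223 was assigned 345.8 and 325 counts, with a posterior SD of 29.4 and 28.6 counts that equals the one given for Stmn1, so its count is uncertain. It came to 0.451% and 0.399% of the Stmn1 count. That is the share assigned to the copy, and the share of reads that fit both genes was not measured. The pseudogene Marcksl1-ps4 held almost nothing, at 3.69 and 0 counts. The microRNA genes Gm23634, inside Stmn1, and Mir6540, inside Gap43, lie on the same strand as their hosts and were listed at 0.

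The 2 pools differed in 5 of the 8 genes by more than counting error. The counts of the libraries were set against each other by a two-sided exact binomial test, scaled by TMM and adjusted by Benjamini-Hochberg over the 20125 genes that had 10 or more counts in one or both libraries, at an adjusted p under 0.05. The test compares these 2 libraries, not conditions, and copies made by PCR count as separate reads. Stmn2, Basp1 and Gap43 were higher in replicate 2, Marcksl1 and Stmn3 were lower, and Stmn1, Marcks and Stmn4 did not pass. Over all genes tested, 20.3% passed, 10.5% as higher and 9.78% as lower in replicate 2. The share rises with depth: of the 2072 genes with a mean count at least that of Stmn4 (3791.5), 46.8% passed, 24.5% as higher and 22.2% as lower; the 5 of 8 here are to be read against that share. The median log2 ratio of the members was 0.03, and that of the 2072 genes was 0.00.

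Stmn2 showed the largest difference of the 8, with 17480 counts in replicate 1 and 22542 in replicate 2. Its log2 ratio of replicate 2 over replicate 1 was 0.28 (95% interval 0.25 to 0.31, counting error only; adjusted p = 8.54e-79 by the exact binomial test), and 8 of the 2072 deep genes had a higher one. Basp1, with 11268 and 13964 counts, had a log2 ratio of 0.22 (0.18 to 0.26; adjusted p = 3.60e-31, exact binomial test), exceeded by 29 of them. Both lie outside the range of −0.19 to 0.19 that holds the central 95% of the log2 ratios of these deep genes. Gap43, with 10503 and 12190 counts, was at 0.13 (0.09 to 0.16; adjusted p = 2.77e-09, exact binomial test), inside that range.

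Marcksl1, with 56245 and 54614 counts, was lower in replicate 2 by a log2 ratio of −0.13 (−0.15 to −0.11; adjusted p = 3.26e-49, exact binomial test). Stmn3, with 11403 and 11510 counts from a deeper second library, was at −0.08 (−0.11 to −0.04; adjusted p = 0.000926, exact binomial test). Stmn1 was at 0.00 (−0.01 to 0.01; adjusted p = 0.982), Marcks at 0.01 (−0.02 to 0.03; adjusted p = 0.862) and Stmn4 at 0.05 (−0.02 to 0.11; adjusted p = 0.337) by the same exact binomial test. Marcksl1 and Stmn3 both lie inside the range of −0.19 to 0.19 that holds the central 95% of the deep genes. By the exact binomial test, the membrane-bound stathmins differed, with Stmn2 higher, Stmn3 lower and Stmn4 not past the threshold. Of these, only Stmn2 lies outside that range.

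The spread between the libraries was larger than counting error across the genome. edgeR's exact test, with the common dispersion of the 2 libraries taken as the spread (a coefficient of variation of 7.36%), called 0 of the 8 genes at an adjusted p under 0.05 and 0 at an unadjusted p under 0.05, where the exact binomial test called 5. By this edgeR test 1.13% of all genes and 0.241% of the 2072 deep genes passed. The spread was estimated from the same 2 libraries that it was used to compare, so the 0 of 8 says little about the members. Adjusted p was 0.710 for Stmn2, 0.939 for Basp1 and 1 for the other 6. Scaling by the ERCC spike-ins instead of TMM shifted the median log2 ratio of all genes by 0.06 and made 76.9% of all calls higher in replicate 2, against 51.8% with TMM. ERCC scaling called 5062 of the 20125 genes tested, against 4080 with TMM, and the share of the deep genes was not computed for it. Of the 8 genes, 6 were then higher and 1 lower. Stmn1 (0.06), Marcks (0.06) and Stmn4 (0.10) passed, and Stmn3 (−0.02, adjusted p = 0.505 by the exact binomial test) no longer did.

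**Figure D4:**
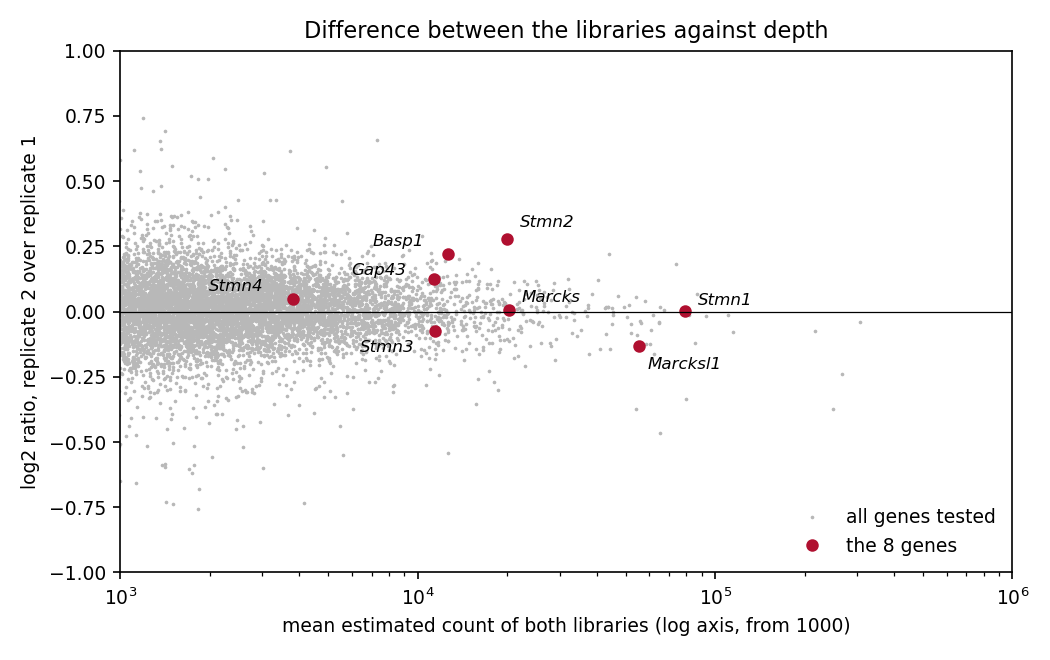
Log2 ratio of replicate 2 over replicate 1 against the mean estimated count of both libraries (log axis) for the genes tested with a mean count of at least 1000 (grey) and the 8 genes (red, labelled). Stmn2 (0.28) and Basp1 (0.22) lie near the upper edge of the genes of their depth, Marcksl1 (−0.13) towards the lower edge, and Stmn1 and Marcks at 0.

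Other marker genes differed between the pools alongside Stmn2, Basp1 and Gap43; their counts of calls stand against the 20.3% of all genes and 46.8% of the deep genes given above. Of 9 sensory ganglion markers, 8 were higher in replicate 2 and 0 lower by the exact binomial test (4 by edgeR's test), with a median log2 ratio of 0.51 and a summed TPM of 184 in replicate 1 and 268 in replicate 2; all 9 were at 1 TPM or more and none was at 0. Prdm12, a transcription factor of pain-sensing neurons, was at 29.2 and 42.8 TPM, and Runx1, the lowest, at 2.72 and 3.57 TPM. Of 8 Schwann cell precursor and crest markers 4 were higher and 1 lower, with 0 by edgeR's test (summed TPM 271.5 and 303). Of 8 skeletal muscle markers 8 were lower, with 3 by edgeR's test (summed TPM 324 and 235). Of 16 pan-neuronal markers 9 were higher and 1 lower, with 0 by edgeR's test and a median log2 ratio of 0.07; the neurofilament gene Nefl was at 569 and 683 TPM, and Tubb3 at 953 and 982 TPM. Relative to Tubb3, Stmn2, Basp1 and Gap43 were higher in replicate 2 by TPM, with log2 ratios of −1.14 and −0.86, −1.64 and −1.42, and −1.33 and −1.20. This depends on the marker chosen. By scaled counts the log2 ratio between the libraries was 0.003 for Tubb3 and 0.223 for Nefl. It was 0.278 for Stmn2, above Nefl, and 0.220 for Basp1 and 0.126 for Gap43, which were not. Progenitor markers went 2 higher and 3 lower of 12, and proliferation markers 0 higher and 5 lower of 10. The part of these markers in the differences of the 8 genes was not tested.

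The genes that act on these proteins were present too. The lists were drawn up by role, with earlier results of these data known. Their counts of called genes are to be read against the 20.3% of all genes and 46.8% of the deep genes that passed the exact binomial test, and edgeR's test called 1 gene in the 7 lists. Among protein kinase C isoforms, which phosphorylate Gap43 and the Marcks proteins, 8 of 9 reached 1 TPM in both libraries. Prkcd was the highest at 39.97 ± 4.01 TPM (SD, n = 2), followed by Prkci (28.5 ± 2.02), Prkcz (27.2 ± 1.51), Prkcb (18.4 ± 1.32) and Prkce (15.1 ± 1.74). Of the 9, Prkcd and Prkci were higher in replicate 2 and 0 were lower by the exact binomial test.

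Calmodulin, which binds Gap43 and the effector stretch of the Marcks proteins, was abundant. Calm2 was at 1401 ± 124 TPM (SD, n = 2) and Calm3 at 175 ± 9.38. The calcineurin subunits, a phosphatase that acts on Gap43, were lower, with Ppp3ca at 125 ± 5.70 TPM, Ppp3r1 at 109 ± 1.32, Ppp3cb at 51.9 ± 0.764, Ppp3cc at 7.46 ± 0.891 and Ppp3r2 at 0.11. Of the 7 that were deep enough to test, Calm2 and Ppp3ca were higher in replicate 2 and Calm3 was lower (log2 ratio −0.37).

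All 16 stathmin kinases on the list reached 1 TPM in both libraries. The highest were Cdk1, the mitotic kinase, at 175 ± 1.81 TPM (SD, n = 2), and Prkaca, a catalytic subunit of protein kinase A, at 170.2 ± 0.764. The lowest were the calmodulin-dependent kinases Camk4 (4.29 ± 0.594) and Camk2a (2.57 ± 0.523). By the exact binomial test 3 were higher in replicate 2 and 4 were lower, and Cdk1 was among the latter although its TPM was 174 and 176.

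The tubulins that stathmins bind were the most abundant partners. Their summed TPM was 13030 in replicate 1 and 13012 in replicate 2, led by Tuba1a at 8445 ± 6.20 TPM (SD, n = 2). Tubb5 was at 1209 ± 0.856 TPM, Tuba1b at 1032 ± 10.9, Tubb3 at 967 ± 20.3, Tubb2a at 758 ± 0.106, Tubb2b at 364 ± 40.0, Tubb4a at 196 ± 24.5 and Tuba1c at 49.7 ± 1.20. By scaled counts Tubb4a was higher in replicate 2, 5 of the 8 were lower, and Tubb3 and Tuba1c did not pass; Tubb5, one of the 5, was at 1208 and 1209 TPM. Several tubulins are near-identical in sequence, so the split of reads among them is an estimate.

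Enzymes that add the lipid anchors were at moderate levels. The N-myristoyltransferases Nmt2 and Nmt1, which modify proteins that begin with glycine, were at 44.5 ± 1.15 and 37.2 ± 2.46 TPM (SD, n = 2). Of the palmitoyltransferases, Zdhhc3 was at 63.04 ± 0.0990 TPM, Zdhhc17 at 35.6 ± 0.177, Zdhhc2 at 29.96 ± 5.35, Zdhhc7 at 27.1 ± 0.771 and Zdhhc15 at 6.74 ± 0.969. By the exact binomial test Zdhhc2, Zdhhc15 and Zdhhc17 were higher in replicate 2 and Nmt2 was lower. For Zdhhc17 this holds for the scaled counts (log2 ratio 0.11) and not for TPM, which was 35.7 and 35.5.

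Some RNA-binding proteins are known to act on the mRNAs of this set. Elavl4, which binds and stabilises Gap43 mRNA, was at 329.7 ± 39.2 TPM (SD, n = 2) and was higher in replicate 2 (log2 ratio 0.19). Any part of Elavl4 in the Gap43 difference was not tested. Tardbp, which keeps a cryptic exon out of human STMN2 mRNA, was at 255 ± 0.587 TPM and did not pass the test. Elavl2 (96.5 ± 5.05), Igf2bp1 (51.4 ± 8.97; log2 ratio −0.31) and Khsrp (42.8 ± 1.29) were lower in replicate 2.

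Of the 20 other growth cone and axon growth genes, 19 reached 1 TPM in both libraries. Map1b, a microtubule-associated protein of growing axons, was the highest at 1066 ± 143 TPM (SD, n = 2), followed by the collapsin response mediators Dpysl2 (574 ± 93.3) and Crmp1 (539.6 ± 32.9), so that Stmn1 and Marcksl1 lay above all 20. The lowest were Atf3 at 1.60 ± 0.0778 TPM and Sprr1a, listed at 0 in both libraries; both are genes of regrowth after injury. By the exact binomial test 9 were higher in replicate 2 and 5 were lower, of 19 tested. The 1 gene of the 20 that edgeR's test also called was Cap1, an actin-binding protein (46.7 and 27.3 TPM, log2 ratio −0.76), singled out after its values were seen.

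**Figure D5:**
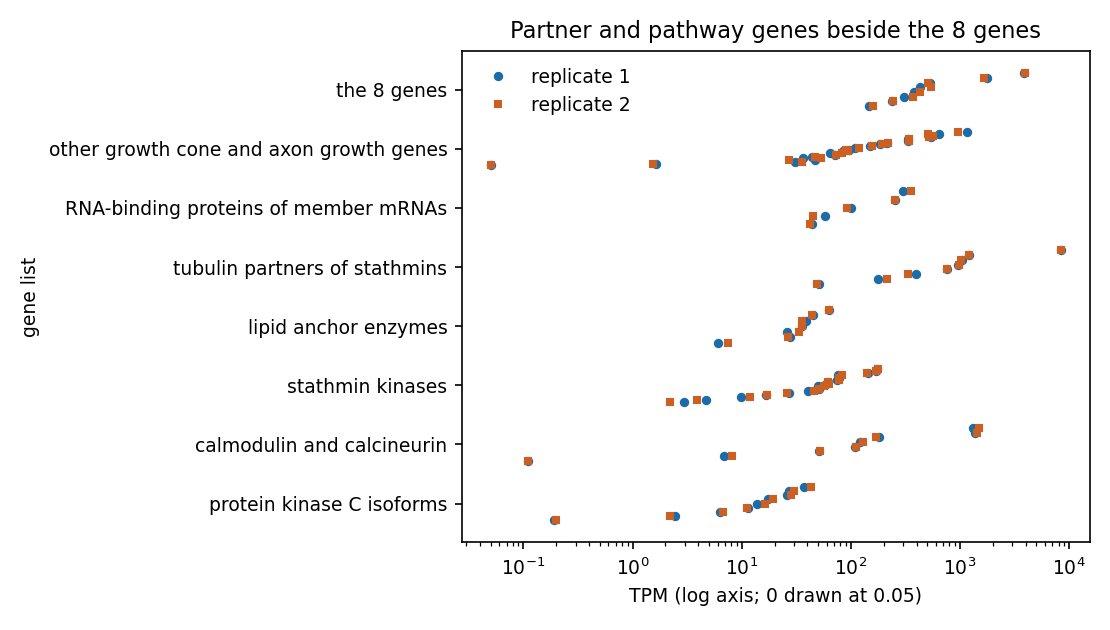
TPM of each gene (log axis; a value of 0 is drawn at 0.05) in replicate 1 (circles) and replicate 2 (squares) for the 8 genes and the 7 lists of partner and pathway genes, 1 row per list. The 8 genes lie above all protein kinase C isoforms and lipid anchor enzymes, while Tuba1a (8445 TPM) lies above Stmn1.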

How the data were processed

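Per the labels' protocols, RNA was extracted with mirVana and cDNA was primed with oligo-dT, made with a low-input kit and fragmented by tagmentation; no strand-specific step is named. Transcriptome alignments on mm10 were quantified against GENCODE M21 and again against M4, per the deposited notes; which aligner and quantifier were run is not given in the sources used here. The tables hold an estimated count per gene, which need not be whole since the authors shared out reads that match several genes, per the file headers. The deposited TPM divides them by effective length and scales each library to a fixed sum, spike-ins included. The deposited percent per transcript is its share of the gene's TPM, and the posterior SD of each count is deposited as a score. The deposited signal columns, which bound a credibility interval of TPM, were not used for results, since they surround the posterior mean and not the TPM.

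M21 gene and transcript tables were used, with symbols from the M21 annotation. Levels are deposited TPM, as mean ± SD over both libraries; ratios within a library have no pseudocount. For the test, counts were rounded, genes under 10 counts in both libraries were dropped, and libraries were scaled by TMM (edgeR 4.0.16, R 4.3.3). Log2 ratios have a prior count of 2. The two-sided exact binomial p was adjusted by Benjamini-Hochberg at 0.05 and tested on simulated data. The simulation held counting error only, without the spread between libraries seen here, so it cannot show how the test behaves under that spread. Its intervals cover counting error only and narrow with depth. Coding sequences came from the GENCODE M21 transcripts, and were aligned with Biopython 1.88 under Python 3.11.15. Tests used scipy 1.17.1, tables pandas 2.3.3 and numpy 2.4.6, and figures matplotlib 3.10.9.

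The members, the 12 marker lists and 7 pathway lists were chosen with earlier results of these data known. Named are all members, their transcripts at 5% or more in either library and symbol-matched pseudogenes. Also named are the nearest protein-coding genes in mean TPM, all genes of pathway lists of up to 9 (otherwise the 3 highest and 2 lowest), and of marker lists the 2 highest and the lowest, some of which are not reported here. The alternatives were M4 tables, posterior mean TPM, TPM rescaled over genes, DESeq2 1.42.0 size factors, ERCC scaling, no filter, edgeR's exact test, a TPM + 1 ratio and leaving out each library.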

Additional observations from a re-analysis of the deposited data

How the results depend on the processing

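The summed TPM of the 8 genes (7752) was 8152 with the M4 tables, 7509 with posterior mean TPM and 8334 with TPM rescaled over genes; each moved all members by nearly 1 factor (1.05, 0.968 to 0.976, and 1.08). The log2 ratios of Stmn1 to the other stathmins, Marcks to Marcksl1 and Gap43 to Basp1 moved by less than the spread between the libraries under the M4 tables and posterior mean TPM; leaving out 1 of 2 libraries cannot move a mean by more than that spread. Of the 8 genes, 5 were called by the exact binomial test and 0 with edgeR's exact test, which uses the spread between the libraries. DESeq2 size factors, no filter and the M4 tables each gave 3 higher and 2 lower, and ERCC scaling 6 and 1. All genes called were 4061 of 20125, 3592 of 30098, 3897 of 18215 and 5062 of 20125, in that order. As log2 ratios of TPM + 1, with no library scaling, Stmn2 was at 0.33, Basp1 at 0.26 and Gap43 at 0.16. No paired analysis was possible because the series has 1 group. With 2 libraries, the SD of each level rests on 1 difference.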
